A study of Mus musculus with 6 samples.

Results

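Satellite cells are the stem cells of skeletal muscle, and 9 genes that mark or direct them were followed here in dystrophic muscle. These are the paired-box factors Pax7 and Pax3, the myogenic regulatory factors Myf5, Myod1, Myog and Myf6, their partner Mef2c, the adhesion molecule Cdh15 and the receptor Met. They were taken by symbol. All 9 of 9 listed genes were measured, among 19752 genes in all, each by 1 probe set. The samples were skeletal muscle of mice with the mdx mutation, the dystrophin-deficient model of muscular dystrophy. For 3 samples the mice had received the anti-CD25 monoclonal antibody PC61, whose target is abundant on regulatory T cells, and for the other 3 they had received rat IgG. Each mouse was injected intraperitoneally 2 times, at 17 and 20 days of age, and the title names depletion of regulatory T cells as the question. The design text places dissection 7 days after the last injection, on day 27, whereas the sample labels state 6 weeks, or day 42.

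In a resting satellite cell Pax7 is the defining transcription factor, and Pax3, its relative, is kept in a subset of muscles. When a fibre is damaged, Met and its ligand take part in waking the cell, and Myf5 and Myod1 commit it to the muscle fate. Myog then drives differentiation, Mef2c acts as a partner of these factors on muscle genes, and Myf6 is the member of the family most prominent in mature fibres. In mdx muscle this cycle of damage and repair recurs, and regulatory T cells that gather in injured muscle are known to act on satellite cells.

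The labels call every animal male, but the arrays divided by Xist, the transcript of the inactive X chromosome. Xist measured 11.77 to 11.94 log2 units on replicates 1 and 2 of each group and 5.48 to 5.49 on replicate 3 of each group. The Y-linked genes Kdm5d and Eif2s3y ran the other way, with 4.62 and 3.62 on anti-CD25 1 and 7.85 and 9.22 on anti-CD25 3. Rat IgG 3 also stood apart in immediate early genes, which respond to handling, with a list mean of 0.60 log2 units relative to the 6 arrays, against -0.38 to 0.0050 on the other 5 arrays, and had the lowest array weight in limma, 0.467. The part of this array's handling genes in the low-Xist differences, each of which rests on it, was not tested. For the Xist split, differences are also given within the 4 high-Xist arrays and between the 2 low-Xist arrays. Nothing states that replicates are separate animals, so p-values reflect the spread among these samples, part of which may be technical. The 6 fibre markers fixed for the check, such as Ckm and Acta1, lay at the 99.9th to 100th percentile of mean level, and the 6 satellite cell markers ran from percentile 34.4 for Calcr to 90.9 for Itga7. Median intensities lay between 149.8 and 151.5, and lower quartiles between 51.2 and 57.7. Precision is limited by the number of arrays.

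The myogenic regulatory factors bind the E-box, CANNTG, which reads as an E-box on either strand. Of the 9 genes, 6 had an upstream sequence in the RefSeq promoter table (build GRCm38.p6), with 8 start sites in all: Pax7, Myf5, Myog, Met, Cdh15 and, with 3 start sites, Mef2c. Windows of 250 bases before the start are shown for Myog, which varied most between arrays, for Cdh15, which had the most E-boxes, and for Met, which had the smallest unadjusted p of the 9. Capitals mark E-boxes, and each line reads 5′ to 3′ towards the start of the gene.
Myog (chr1:134289754-134290003, plus strand): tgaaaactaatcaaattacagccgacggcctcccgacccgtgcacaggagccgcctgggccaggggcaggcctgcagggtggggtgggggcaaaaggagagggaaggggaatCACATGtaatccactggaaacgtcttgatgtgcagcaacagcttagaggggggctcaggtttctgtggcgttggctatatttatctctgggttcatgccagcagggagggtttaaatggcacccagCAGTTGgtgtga
Cdh15 (chr8:122848124-122848373, plus strand): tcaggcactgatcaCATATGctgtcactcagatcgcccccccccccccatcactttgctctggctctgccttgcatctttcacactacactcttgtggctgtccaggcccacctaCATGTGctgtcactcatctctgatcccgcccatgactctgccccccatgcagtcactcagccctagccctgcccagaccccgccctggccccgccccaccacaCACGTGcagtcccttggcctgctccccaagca
Met (chr6:17463707-17463956, plus strand): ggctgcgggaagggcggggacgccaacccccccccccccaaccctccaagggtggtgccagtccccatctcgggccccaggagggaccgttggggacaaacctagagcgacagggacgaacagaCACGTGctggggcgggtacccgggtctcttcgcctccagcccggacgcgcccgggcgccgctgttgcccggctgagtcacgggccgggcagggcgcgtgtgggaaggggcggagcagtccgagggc
The Myog window held 2 E-boxes, beginning 138 and 12 bases before the start, the Cdh15 window 3 and the Met window 1. The windows of Pax7 and Myf5 held 0, and those of Mef2c 2, 0 and 1. An E-box occurred in 66.2% of all 32851 windows of this length and 3 or more in 12.2%, so a match is a description and not a site.

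None of the 9 regulators passed the test between anti-CD25 and rat IgG. With anti-CD25, 4 lay higher and 5 lower, and the median difference was -0.12 log2 units, while 58.9% of all genes were lower, with a median of -0.026. Here and throughout, a difference is anti-CD25 minus rat IgG in log2 intensity. The smallest adjusted p among the 9 was 0.750 (limma, Benjamini-Hochberg), and 0 had an unadjusted p under 0.05. At the adjusted threshold 0% of all 19752 genes were called, and at the unadjusted one 6.28%. The 95% intervals of the 9 lay between -0.47 and 0.59, and these outermost bounds correspond to 1.38-fold lower and 1.51-fold higher. The median interval of the 9 reached 0.26 to each side, against 0.22 over all genes. Groups did not overlap for 3 of the 9, while 11.7% of all genes had no overlap. Pax7 and Mef2c were lower without overlap, as were 7.46% of all genes, and Met was higher without overlap, as were 4.28%. In bulk muscle, fewer cells of a type and less RNA per cell cannot be told apart.

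**Figure D1:**
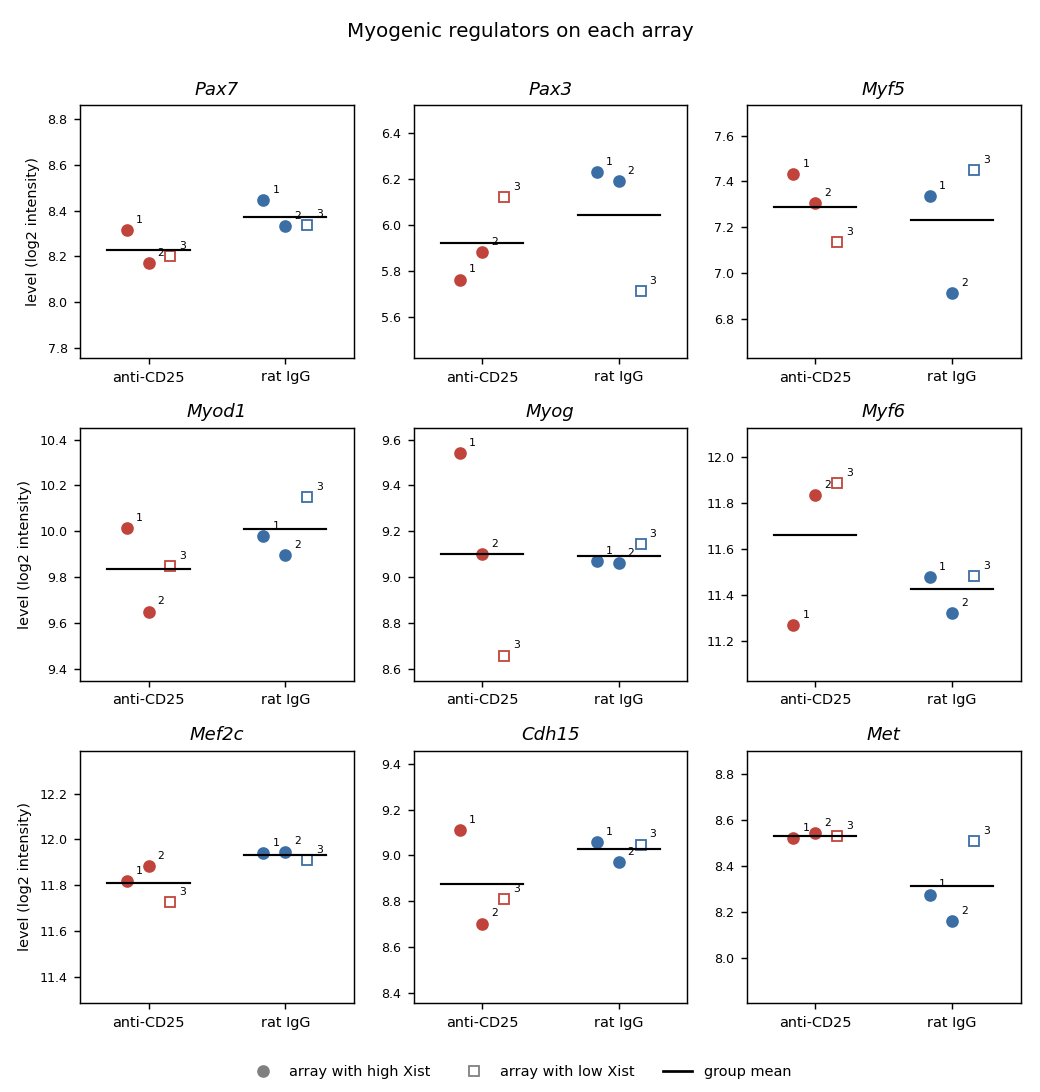
Level of each of the 9 regulators in log2 intensity on each array, numbered by replicate, with anti-CD25 left of rat IgG, a line at each group mean, filled circles for the arrays with high Xist and open squares for those with low Xist. Every panel spans the same 1.1 log2 units, so that the wide spread of Myog with anti-CD25, SD 0.44, can be set against 0.046 with rat IgG.

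Pax7 was lower on every anti-CD25 array, by a small amount. It measured 8.31, 8.17 and 8.20 log2 units on anti-CD25 1, 2 and 3, and 8.45, 8.33 and 8.34 on rat IgG 1, 2 and 3. The groups did not overlap, but the gap between them was 0.018 log2 units. The means were 8.23 ± 0.075 with anti-CD25 and 8.37 ± 0.064 with rat IgG (SD, n = 3 each), a difference of -0.14 (SE 0.082, 95% interval -0.33 to 0.043), or 1.10-fold lower. The adjusted p was 0.750 (limma). An exact permutation test, two-sided, gave p = 0.1, the smallest that 3 against 3 allows, as it did for Mef2c and Met. The difference was -0.15 within the high-Xist arrays and -0.14 between the low-Xist arrays, and -0.19 to -0.11 with each array left out.

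Pax3 was the dimmest of the 9, at the 28.0th percentile of mean level, a range where RMA understates differences. It measured 5.76, 5.88 and 6.12 on the anti-CD25 arrays, against 6.23, 6.19 and 5.71 on the rat IgG arrays. Replicate 3, the low-Xist array, was the highest of the anti-CD25 arrays and the lowest of the rat IgG arrays. The lower quartile of each array's log2 values was 5.70, 5.68 and 5.82 with anti-CD25. With rat IgG it was 5.85, 5.85 and 5.68, so replicate 3 again stood highest with anti-CD25 and lowest with rat IgG. The part of this shift among dim genes in the Pax3 values was not tested. The difference was -0.12 (95% interval -0.47 to 0.22), -0.39 within the high-Xist arrays (adjusted p = 0.109, limma) and 0.41 between the low-Xist arrays. The test of whether treatment differed by Xist class, an interaction term in limma, gave an unadjusted p of 0.00124 and an adjusted p of 0.0618 for Pax3. That term rests on the spread among the high-Xist arrays alone, and 19.4% of all genes had an unadjusted p under 0.05 for it. After a second quantile normalization the Pax3 difference over all 6 arrays was -0.062.

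Among the myogenic regulatory factors, Myf5 and Myod1, which commit cells to the lineage, lay on opposite sides of 0. Myf5 measured 7.43, 7.30 and 7.14 with anti-CD25 and 7.34, 6.91 and 7.45 with rat IgG, and rat IgG 2 was the low array. Its difference was 0.058 (95% interval -0.27 to 0.39), and -0.10 without rat IgG 2. Myod1 measured 10.01, 9.65 and 9.85 with anti-CD25 and 9.98, 9.90 and 10.15 with rat IgG. Anti-CD25 2 was its lowest array and rat IgG 3 its highest, and the groups overlapped. The means were 9.84 ± 0.18 with anti-CD25 and 10.01 ± 0.13 with rat IgG (SD, n = 3 each), a difference of -0.17 (95% interval -0.43 to 0.085, limma adjusted p = 0.763). It was -0.078 without anti-CD25 2 and -0.26 without anti-CD25 1.

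Myog, which drives myoblasts into differentiation, had the widest range over the 6 arrays, 0.88 log2 units, and nearly equal group means. It measured 9.54, 9.10 and 8.66 on anti-CD25 1, 2 and 3, against 9.07, 9.06 and 9.15 on rat IgG 1, 2 and 3. The rat IgG arrays lay within 0.1 log2 units of each other, and anti-CD25 1 and 3 were the highest and the lowest of all 6 arrays. The means were 9.10 ± 0.44 with anti-CD25 and 9.09 ± 0.046 with rat IgG (SD, n = 3 each), and the difference was 0.0073 (95% interval -0.42 to 0.43). It was 0.25 within the high-Xist arrays and -0.49 between the low-Xist arrays (interaction unadjusted p = 0.0142, adjusted p = 0.136, limma). Over the 9 genes this interaction had an unadjusted p under 0.05 for 3, Pax3, Myf5 and Myog, against 19.4% of all genes, and passed adjusted for 0, against 0.0405% of all genes. The difference in spread between the groups was not tested.

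Myf6, the factor most prominent in mature fibres and a neighbour of Myf5 on chromosome 10, ran opposite to Myog on the anti-CD25 arrays. It measured 11.27, 11.83 and 11.89 on anti-CD25 1, 2 and 3, against 11.48, 11.32 and 11.48 on rat IgG 1, 2 and 3. Anti-CD25 1 was the lowest of the 6 arrays and anti-CD25 2 and 3 were the highest. The difference was 0.24 (SE 0.16, 95% interval -0.12 to 0.59, limma adjusted p = 0.763), the highest of the 9, and 0.43 without anti-CD25 1. Mef2c, which encodes a partner of the myogenic factors that endothelial and B cells also use, was bright and steady, with a range of 0.22. It measured 11.82, 11.88 and 11.73 with anti-CD25 and 11.94, 11.95 and 11.91 with rat IgG. The gap between the groups was 0.026 and the difference -0.12 (95% interval -0.30 to 0.058, limma adjusted p = 0.762). It was -0.092 within the high-Xist arrays and -0.18 between the low-Xist arrays. Markers of endothelial cells had 9 of 12 measured genes lower, and their summed intensity ran from 9092 to 9613 with anti-CD25 and from 8960 to 9976 with rat IgG. Markers of B cells had 6 of 7 lower, with sums of 422 to 533 and 461 to 517. Of the 7, 3 had a mean level below the lower quartile of every array. The part of these cells in the Mef2c value was not tested.

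**Figure D2:**
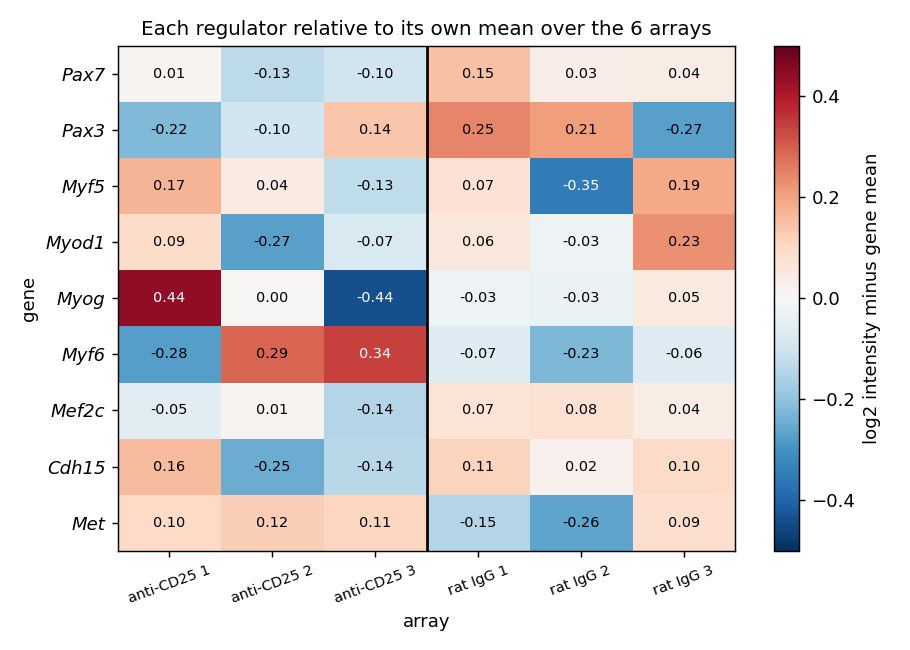
Each regulator on each array as log2 intensity minus its mean over the 6 arrays, with anti-CD25 arrays left of the line and rat IgG arrays right of it. Myog ranges from 0.44 on anti-CD25 1 to -0.44 on anti-CD25 3, and Myf6 from -0.28 to 0.34 on the same 2 arrays.

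Cdh15, the M-cadherin of satellite cells and myoblasts, measured 9.11, 8.70 and 8.81 with anti-CD25 and 9.06, 8.97 and 9.05 with rat IgG. Anti-CD25 1 was the highest of the 6 arrays and anti-CD25 2 and 3 the lowest, whereas Myf6 had its lowest value on anti-CD25 1 and its highest values on the other two. The difference was -0.15 (SE 0.11, 95% interval -0.40 to 0.10, limma adjusted p = 0.777), -0.27 without anti-CD25 1 and -0.067 without anti-CD25 2. Without anti-CD25 1, groups did not overlap for 6 of the 9, Cdh15, Mef2c, Met, Myf6, Myod1 and Pax7, while 19.7% of all genes then had no overlap.

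Met, the receptor for hepatocyte growth factor, was the member with the smallest unadjusted p, 0.0593. It measured 8.52, 8.54 and 8.53 on the anti-CD25 arrays and 8.27, 8.16 and 8.51 on the rat IgG arrays. The anti-CD25 arrays were nearly equal, and rat IgG 3 lay 0.012 below the lowest of them. The means were 8.53 ± 0.012 with anti-CD25 and 8.31 ± 0.18 with rat IgG (SD, n = 3 each), a difference of 0.22 (SE 0.10, 95% interval -0.011 to 0.45, limma adjusted p = 0.750), or 1.16-fold higher. It was 0.32 within the high-Xist arrays (adjusted p = 0.139, limma) and 0.022 between the low-Xist arrays, and 0.14 without rat IgG 2.

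Hgf, the ligand of Met, released by macrophages and stromal cells, was also higher on every anti-CD25 array. It measured 7.32, 6.91 and 7.12 with anti-CD25, against 6.73, 6.11 and 6.79 with rat IgG. The difference was 0.57 (SE 0.18, limma unadjusted p = 0.0126, adjusted p = 0.750), or 1.49-fold, the largest in size in the 6 lists of related genes. It was 0.70 within the high-Xist arrays, 0.33 between the low-Xist arrays, and 0.35 to 0.70 with each array left out. Rat IgG 2 was the lowest array for both Hgf and Met. Markers of macrophages had 14 of 15 measured genes higher, 0 past the adjusted test, with summed intensities of 19072 to 25490 with anti-CD25 and 16078 to 19661 with rat IgG, lowest on rat IgG 2. None of the 15 had a mean level below the lower quartile of every array. Their part in the Hgf and Met values was not tested.

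**Figure D3:**
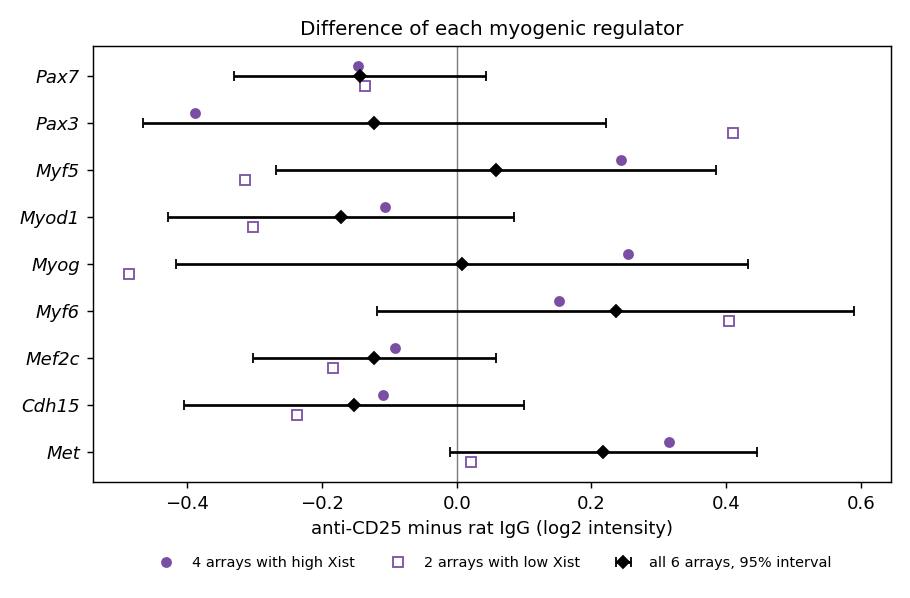
Difference of each regulator, anti-CD25 minus rat IgG in log2 intensity, with limma's 95% interval over all 6 arrays (diamonds), beside the value within the 4 high-Xist arrays (filled circles) and between the 2 low-Xist arrays (open squares). Every interval includes 0, and for Pax3, Myf5 and Myog the circles and squares lie on opposite sides of it.

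The other genes of the myogenic programme were described through 6 lists, which held 143 measured genes. None of the 143 passed the adjusted test, 10 had an unadjusted p under 0.05, which is 6.99% against 6.28% of all genes, and groups did not overlap for 20, which is 14% against 11.7%. Both shares lie near those of all genes. Among the other genes around Met, 13 of 23 were higher and 10 lower, with a median difference of 0.034. Beside Hgf, the leading ones were Cbl, a ubiquitin ligase that ends Met signalling, at 0.25 (SE 0.11), and the phosphatase Ptprj at 0.24 (SE 0.12).

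Other markers of satellite cells were higher for 8 and lower for 12 of 20 genes, with a median of -0.068. Groups did not overlap for 6 of the 20, 1 higher and 5 lower, where 4.28% and 7.46% of all genes did the same. Heyl, an effector of Notch, the pathway that keeps satellite cells at rest, measured 8.26, 8.03 and 7.73 with anti-CD25 and 8.30, 8.63 and 8.25 with rat IgG, so that anti-CD25 1 overlapped the rat IgG arrays. Its difference was -0.38 (SE 0.15). The calcitonin receptor Calcr, a mark of resting satellite cells, measured 6.27, 6.31 and 6.24 with anti-CD25 and 6.36, 6.52 and 6.41 with rat IgG, a difference of -0.16 (SE 0.081) without overlap. The growth factor receptor Fgfr4 stood at -0.21 and the integrin Itga7 at -0.15. The adhesion molecule Vcam1, which endothelial cells also carry, stood at 0.16, and at 0.010 without rat IgG 2. Which cells of the muscle the values of this list come from was not tested.

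DNA-binding partners and co-regulators were lower for 20 and higher for 5 of 25 genes, with a median of -0.11, against -0.026 over all genes. Groups did not overlap for 5 of the 25, each of them lower, as for 7.46% of all genes. The relatives of Mef2c went different ways, with Mef2d at -0.20 (SE 0.097) and Mef2a at 0.11 (SE 0.081). Mef2d was -0.086 within the high-Xist arrays and -0.42 between the low-Xist arrays, and Mef2a 0.10 and 0.12. Eya1, a co-activator of homeobox factors in muscle, differed by -0.18, and Lmo7, a co-factor in muscle cells, by -0.16. Eya1 was -0.10 within the high-Xist arrays and -0.35 between the low-Xist arrays, and Lmo7 -0.13 and -0.22. Catenins and cadherins were split, 6 higher and 7 lower, with a median of -0.022. Cdh4 stood at -0.31 (SE 0.10), the catenin Jup at -0.22 and Cdh2, the N-cadherin of myoblasts, at 0.15. Jup was -0.11 within the high-Xist arrays and -0.44 between the low-Xist arrays, Cdh4 -0.36 and -0.22, and Cdh2 0.18 and 0.098.

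Inhibitors of the myogenic factors were also split, 13 higher and 16 lower of 29, with a median of -0.030. Groups did not overlap for 3 of the 29, 2 higher and 1 lower, where 4.28% and 7.46% of all genes did the same. Id2, which keeps the myogenic factors from their E protein partners, measured 10.38, 10.17 and 10.43 with anti-CD25 and 10.15, 9.73 and 10.17 with rat IgG. Its difference was 0.31 (SE 0.13), with a gap of 0.0070 between the groups. Its relative Id3 stood at 0.14 (0.020 without anti-CD25 1) and the repressor Msc at 0.13 (-0.044 without rat IgG 3). The Notch effectors Hes1 and Hey2 stood at -0.29 and -0.37. Hes1 was -0.090 within the high-Xist arrays and -0.68 between the low-Xist arrays, a value that rests on rat IgG 3. Hey1, a Notch effector listed with the satellite cell markers and named after its value was seen, went the other way at 0.12. The Hey2 difference (SE 0.098, limma unadjusted p = 0.00416, adjusted p = 0.750) was without overlap. It was -0.35 within the high-Xist arrays and -0.41 between the low-Xist arrays. Hey2, at the 20.9th percentile of level, belongs to the dimmest 30% of genes. Their median difference of -0.080 shrank to -0.0033 when the arrays were quantile normalized again. The part of that shift in the Hey2 value was not tested.

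Targets of the myogenic factors were lower for 27 and higher for 7 of 34 genes, with a median of -0.057. Groups did not overlap for 3 of the 34, each of them lower, as for 7.46% of all genes. Myl4, the embryonic light chain, measured 12.23, 12.15 and 12.07 with anti-CD25 and 12.68, 12.35 and 12.38 with rat IgG, a difference of -0.32 (SE 0.11) without overlap. Myl6b stood at -0.36 (SE 0.12) and Dok7, which activates the receptor kinase of the neuromuscular junction, at -0.22 (SE 0.077), both without overlap. Musk, that receptor kinase, went the other way at 0.25 (SE 0.11), the list's only higher gene with an unadjusted p under 0.05, and was named after its value was seen. Mymk, the membrane protein that fuses myoblasts, measured 10.64, 10.06 and 10.05 with anti-CD25 and 10.71, 10.38 and 10.33 with rat IgG. Anti-CD25 1 lay above 2 of the rat IgG arrays, and the difference was -0.22 (SE 0.17), reaching -0.10 with rat IgG 1 left out and -0.42 with anti-CD25 1 left out. The embryonic myosin Myh3 stood at -0.36 (SE 0.20), and at -0.13 without rat IgG 1, and the fetal acetylcholine receptor subunit Chrng at -0.16 (SE 0.17), and at 0.00053 without rat IgG 1. Genes of mature fibres had a median of -0.033, with sums of 134849 to 140062 with anti-CD25 and 137144 to 143074 with rat IgG.

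**Figure D4:**
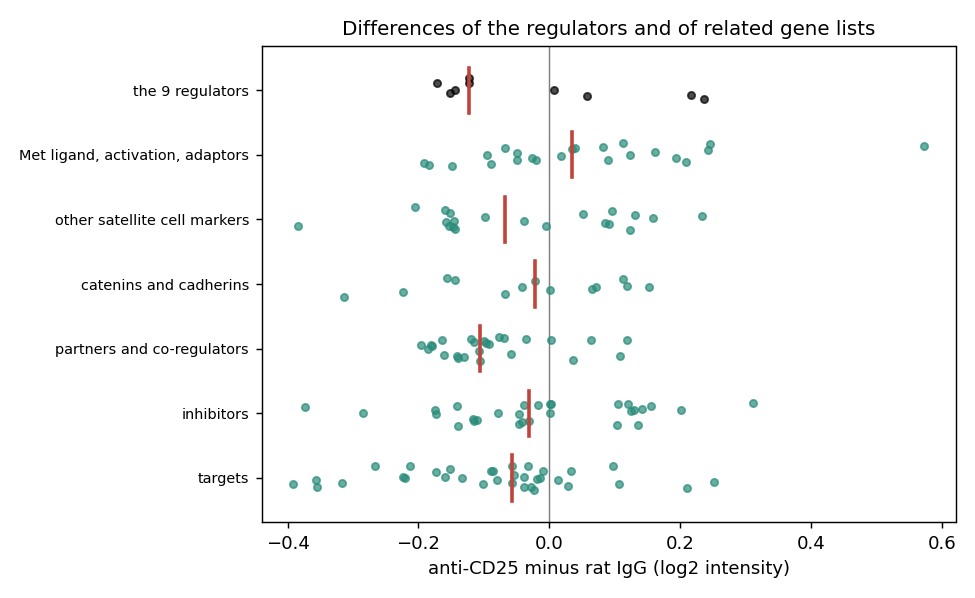
Difference of each gene, anti-CD25 minus rat IgG in log2 intensity, for the 9 regulators (black) and the 6 lists of related genes (green), with the median of each as a red line. The medians run from -0.12 for the 9 regulators to 0.034 for the genes around Met, and Hgf, at 0.57, is the rightmost point.

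**Figure D5:**
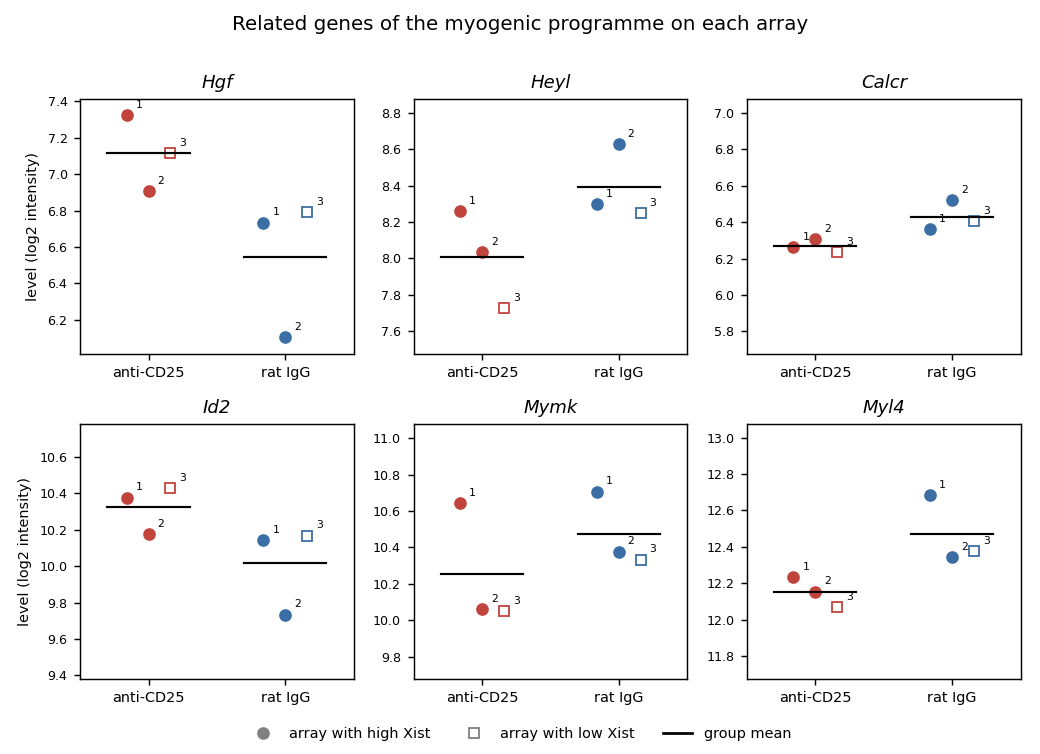
Level in log2 intensity of 6 related genes on each array, anti-CD25 left of rat IgG, with group means as lines and open squares for the arrays with low Xist. Hgf and Id2 are higher, and Calcr and Myl4 lower, on all 3 anti-CD25 arrays, while the groups overlap for Heyl and Mymk.

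Likeness to the 2 members with the widest range was measured as the root mean square difference over the 6 arrays, each gene taken relative to its own mean. It is a description, since among 19752 genes some will follow any pattern of 6 values. Closest to Myog were Glcci1, Rny1 and Zfp949, at 0.10 to 0.11 log2 units, where the pattern of Myog itself had a root mean square of 0.26. Closest to Myf6 were Slc9a3 at 0.077, Creld2 at 0.078 and Adgrg6 at 0.083, against 0.24 for Myf6 itself. Creld2, a chaperone of the endoplasmic reticulum, measured 8.82, 9.15 and 9.22 with anti-CD25 and 8.84, 8.69 and 8.88 with rat IgG, and anti-CD25 1 again stood with the rat IgG arrays.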

How the data were processed

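Per the labels' protocols, total RNA of flash-frozen muscle was extracted with TriZol and labelled with an Affymetrix kit, and each sample has 1 array. The deposited value is an intensity on a linear scale for each of 24922 probe sets. It comes from RMA in Affymetrix Power Tools, per the submitters' processing notes. RMA corrects background, normalizes arrays to common quantiles and draws dim probe sets together, which understates their differences. The sources used here give neither tool versions nor a genome build.

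The log2 of each value was taken with no pseudocount. The platform annotation gave 1 symbol for 21425 probe sets, which named 19752 genes. The probe set with the highest mean was kept, and each of the 9 members had 1. All genes were fitted with limma (lmFit and eBayes, version 3.58.1 in R 4.3.3, two-sided), with group as the only term. The Benjamini-Hochberg adjustment ran over all genes, and the threshold was 0.05. Single values were compared by exact permutation. The fit was tested on simulated data. The number in the titles was not used to pair the samples in the main fit. Deviations of same-numbered arrays from their group means correlated at -0.17 to 0.030 across genes, and those of other-numbered arrays at -0.20 to 0.15. With so few arrays these values cannot exclude a pairing, and Xist class followed the number in both groups. The members and the 14 gene lists were chosen with earlier results of these data known. Named genes are the members, the 3 genes with the smallest unadjusted p of each of 6 lists, a fixed set (Hgf, Itga7, Calcr, Vcam1, Mef2a, Mef2d, Id3, Msc, Myh3, Chrng and Mymk among them) and the genes most like the 2 most variable members. Of the 251 list entries, 234 were measured. An item of the fixed set is not reported here. The alternatives are given in the closing section.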

Additional observations from a re-analysis of the deposited data

How the results depend on the processing

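With 3 arrays a group, the calls rest on few samples, and 0 of the 9 regulators passed under any of 16 tested alternatives. Over all genes 0 passed, 0 to 7 with 1 array left out (7 without rat IgG 3), 0 against a 1.2-fold change, and 1240 at an unadjusted p of 0.05. Groups did not overlap for 3 of the 9, against 11.7% of all genes. With 1 array left out the count was 3 to 6 of the 9, against 15.9% to 33.8% of all genes. Within the 4 arrays with high Xist it was 5, where 52% of all genes do not overlap. After a second quantile normalization, which ended the gap for Pax7, it was 2, against 12.7% of all genes. The median difference of the 9, -0.12, ran from -0.13 to -0.030 with 1 array left out. Pax7, Myod1, Myf6, Mef2c, Cdh15 and Met kept their sign under all 17 alternatives, and Met ran from 0.022 to 0.32. Several of these alternatives leave the difference of a member as it was, so the sign could not turn under them. They are the variance trend with robust fit, the filters on level, the mean of all probe sets, the replicate block and the Xist covariate. Pax3 turned to 0.41 between the 2 arrays with low Xist. Myf5 turned to -0.31 there, and ran from -0.10 to 0.17 with 1 array left out. Myog turned to -0.49 there and to -0.012 after a second quantile normalization, and ran from -0.21 to 0.23 with 1 array left out. The precursor rows of Mir133a-2 and Mir206 turned to -0.12 and -0.11 between the 2 arrays with low Xist. Each value between the 2 arrays with low Xist rests on rat IgG 3, where immediate early genes had a list mean of 0.60, and the cause of these turns was not tested. Of the list medians, that of satellite cell markers ran from -0.11 to -0.022, of partners from -0.21 to -0.069, of targets from -0.095 to -0.031 and of genes around Met from 0.0073 to 0.083, and those of inhibitors (-0.096 to 0.0087) and cadherins (-0.083 to 0.040) crossed 0. The replicate block, on the numbers in the titles, left each difference as it was, such as 0.22 for Met, and called 0 genes. Above the 50th percentile of level Pax3 and Myf5 drop out and have no value, and above the 30th Pax3 does.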

Other observations

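Precursors of the muscle microRNAs, whose genes the myogenic factors and Mef2c are known to switch on, were mostly higher on the anti-CD25 arrays. They were chosen after their values were seen, so no call is drawn from them. Of 6 measured precursor genes, 5 were higher and 1 lower with anti-CD25, while 108 of 285 microRNA genes on the array were higher, with a median difference of -0.043. Mir1a-2 had the highest difference of the 285. It measured 7.35, 6.85 and 6.46 log2 units on anti-CD25 1, 2 and 3, against 5.99, 6.03 and 6.08 on rat IgG 1, 2 and 3, a difference of 0.85 (SE 0.19, limma adjusted p = 0.750). The lowest anti-CD25 array lay above the highest rat IgG array, and it differed by 1.09 on the 4 high-Xist arrays and by 0.39 on the 2 low-Xist arrays. Mir1a-1, the other gene for the same microRNA, ranked 2 of 285. It measured 7.07, 6.94 and 6.79 with anti-CD25 and 6.20, 5.83 and 6.69 with rat IgG, a difference of 0.69 (SE 0.19), 0.99 on the high-Xist arrays and 0.11 on the low-Xist arrays. Mir133a-1 measured 8.01, 8.21 and 7.57 with anti-CD25 and 7.35, 7.31 and 7.49 with rat IgG, a difference of 0.55 (SE 0.15), 0.78 on the high-Xist arrays and 0.078 on the low-Xist arrays. Mir133a-2 differed by 0.27 and Mir206 by 0.32, each with overlap between the groups, at ranks 21 and 16. Mir499 differed by -0.22, rank 258, with -0.035 on the high-Xist arrays and -0.60 on the low-Xist arrays. Probe sets for these genes read RNA of the precursor region and not the mature microRNA. Their levels ran from the 10.8th percentile for Mir499 to the 56.5th for Mir133a-1. Mir499 and Mir206, the latter at percentile 21.1, belong to the dimmest 30% of genes.

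The mature sequences of the pair of neighbouring genes on chromosome 1, from RefSeq (build GRCm38.p6), are shown for the seed, in capitals (bases 2 to 8), by which such microRNAs find their targets.
miR-206-3p (chr1:20679055-20679076, plus strand): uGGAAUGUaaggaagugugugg
miR-133b-3p (chr1:20682834-20682855, plus strand): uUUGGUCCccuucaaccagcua
The values of Mir133b itself are not analysed here.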
